A study of Mus musculus with 12 samples.

Results

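The genes described here are 9 inducible inflammation and defence genes of the intestinal epithelium, namely Duox2, Duoxa2, Nos2, Saa1, Saa2, Saa3, Lcn2, S100a8 and S100a9. They were chosen by name, through the Ensembl gene identifiers that the mouse GENCODE M21 annotation pairs with these symbols, and all 9 were found among the 53715 genes of the deposited table. Poly(A) RNA was sequenced from ileal and colonic mucosa of C57BL/6J male mice of 8 weeks, in 4 groups of 3 libraries, with a separate mouse for each library of a group. The labels do not say whether ileum and colon were taken from the same mice, so the libraries may not all come from different animals. Control mice carried the floxed gene without Cre (Slc39a8-fl/fl), and Slc39a8-IEC KO mice (hereafter KO) carried the same floxed alleles with the Villin-Cre transgene, which is active in the intestinal epithelium and leaves the other cells of the mucosa untargeted. Slc39a8 encodes a manganese importer. The study's methods describe its controls as a mix of floxed, wild-type and Cre-only mice, whereas the sample labels give Slc39a8-fl/fl for all 6 control libraries. The labels name no treatment for any of the mice.

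These genes serve innate defence at the gut surface. Contact with certain bacteria, and the cytokines IL-22 and IL-17 made by lymphocytes beneath the epithelium, act through STAT3 and NF-kB in epithelial cells to raise transcription of oxidant-producing enzymes, of serum amyloid A proteins and of proteins that withhold metals from microbes. DUOX2 releases hydrogen peroxide from the apical membrane and needs its maturation factor DUOXA2 to leave the endoplasmic reticulum, NOS2 makes nitric oxide, serum amyloid A proteins are acute-phase apolipoproteins, LCN2 binds bacterial iron carriers, and S100A8 with S100A9 forms calprotectin, a chelator of manganese and zinc that is abundant in neutrophils.

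Several of these genes lie side by side in the genome (mm10). Duox2 (chr2:122279247-122298449, minus strand) and Duoxa2 (chr2:122298900-122302885, plus strand) start 451 bases apart and point away from each other. Saa3 (chr7:46711998-46715700, minus), Saa1 (chr7:46740497-46742980, minus) and Saa2 (chr7:46751790-46754313, plus) form a cluster in which the starts of Saa1 and Saa2 are 8810 bases apart. S100a8 (chr3:90668978-90670035, plus) and S100a9 (chr3:90692632-90695721, minus) have starts 26743 bases apart, while Nos2 (chr11:78920787-78960254, plus) and Lcn2 (chr2:32384633-32388252, minus) stand alone among the 9.

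The 250 bases before the RefSeq start (GRCm38.p6, the same assembly as mm10) were available for 8 of the 9 genes. They are shown for the serum amyloid A cluster and for Lcn2, because Saa1 and Saa2 had nearly the same upstream sequence and yet very different levels, as given further on. Capitals mark the C/EBP motif TTGNNCAA, and the windows are Saa1 at chr7:46742981-46743230 (minus), Saa2 at chr7:46751583-46751832 (plus), Saa3 at chr7:46715677-46715926 (minus) and Lcn2 at chr2:32387740-32387989 (minus).
Saa1: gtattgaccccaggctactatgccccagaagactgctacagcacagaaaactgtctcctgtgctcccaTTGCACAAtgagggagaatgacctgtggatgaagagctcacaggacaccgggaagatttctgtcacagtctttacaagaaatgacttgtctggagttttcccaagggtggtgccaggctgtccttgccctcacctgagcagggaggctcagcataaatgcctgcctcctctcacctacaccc
Saa2: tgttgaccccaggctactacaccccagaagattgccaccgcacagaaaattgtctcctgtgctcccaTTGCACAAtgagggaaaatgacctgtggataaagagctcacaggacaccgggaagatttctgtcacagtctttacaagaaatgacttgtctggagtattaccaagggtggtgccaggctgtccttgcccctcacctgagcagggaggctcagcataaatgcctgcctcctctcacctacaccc
Saa3: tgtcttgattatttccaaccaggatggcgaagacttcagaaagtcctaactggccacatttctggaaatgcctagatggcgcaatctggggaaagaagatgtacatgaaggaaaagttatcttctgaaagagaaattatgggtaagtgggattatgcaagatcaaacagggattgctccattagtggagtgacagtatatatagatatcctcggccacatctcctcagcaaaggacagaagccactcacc
Lcn2: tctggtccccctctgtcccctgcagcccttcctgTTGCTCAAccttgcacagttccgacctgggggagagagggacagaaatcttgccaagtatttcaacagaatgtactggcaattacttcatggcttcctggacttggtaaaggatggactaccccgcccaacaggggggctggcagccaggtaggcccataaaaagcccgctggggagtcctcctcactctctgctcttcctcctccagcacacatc

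Saa1 and Saa2 were identical at 238 of 250 aligned upstream bases (95.2%), whereas Saa1 and Saa3 shared 139 of 250 (55.6%). The motif stood 182 to 175 bases before the start in Saa1, 183 to 176 bases before it in Saa2 and 216 to 209 bases before it in Lcn2. Searched on both strands, this motif was present in 5.65% of all 32851 upstream windows of the same length. The NF-kB consensus was found in none of the 8 windows and in 7.25% of all windows, and the STAT motif TTCNNNGAA in none of the 8 and in 7.02% of all. These matches describe the letters in the windows and do not show that a factor was bound.

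Depth ranged from 16749138 to 27903083 counts per library. Slc39a8 itself, the check of the labels, was lower in every KO library than in every control library of the same tissue, at 8.39, 5.22 and 6.59 CPM (counts scaled to library size) in ileal control mice against 4.35, 2.62 and 2.80 CPM in ileal KO mice, and at 20.8, 20.5 and 20.1 against 7.35, 11.5 and 7.93 CPM in the colon. With the tissues combined, KO over control came to -1.13 (SE 0.17) on the log2 scale for it, with an adjusted p of 0.382 in edgeR's quasi-likelihood test, which did not pass the threshold of 0.1 over 16558 genes, whereas DESeq2, the study's tool, gave it an adjusted p of 1.25e-05 and limma-voom one of 0.0729. Epithelial markers were high in all 12 libraries. Among the ileal libraries, control replicate 3 and KO replicate 1 stood apart, with Acta2 (smooth muscle actin) at 7.14 and 4.89 CPM against 398 to 537 CPM in the other 4. Ileal KO replicate 2 held colonic transcripts, with the colonic carbonic anhydrase Car1 at 2632 CPM against 3.40 to 144 CPM in the other ileal libraries and 14884 to 27124 CPM in the colon.

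Of the 9 genes, 7 passed the filter on low counts. S100a8 (0 to 6 counts per library) and S100a9 (0 to 8 counts) did not, and they are described by their counts only. All levels are CPM scaled by TMM factors unless stated otherwise, and levels of different genes are compared only per kilobase of annotated exon. In a bulk sample, fewer cells of a type and less RNA per cell cannot be told apart.

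The genes of the oxidant enzymes were well expressed, and in ileal control mice their mean levels per kilobase ranked next after that of Saa1. Duox2 stood at 616, 699 and 95.7 CPM in the 3 ileal control libraries, at 220, 355 and 498 CPM in ileal KO mice, at 127, 95.9 and 221 CPM in colonic control mice and at 100.2, 66.1 and 165 CPM in colonic KO mice. The ileal groups overlapped, the colonic groups overlapped, and the lowest ileal library was a control library that lay within the colonic range. Duox1, the paralog of Duox2, was at or below 0.60 CPM in every library.

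Duoxa2, whose product is needed for DUOX2 to reach the cell surface, was measured at 372, 434 and 20.3 CPM in ileal control mice and at 58.3, 165 and 254 CPM in ileal KO mice. In the colon it was at 42.9, 11.6 and 52.1 CPM in control and 14.04, 13.7 and 51.9 CPM in KO mice. It thus followed Duox2 in having a single low ileal control library, but over a wider range, with a 21.4-fold span within the ileal control group against 7.30-fold for Duox2. Per kilobase, mean Duoxa2 was 173 CPM and mean Duox2 69.4 CPM in ileal control mice, and 22.3 and 21.9 CPM in colonic control mice. Duoxa2 shares 682 exon bases (42.8% of its exons) with Duoxa1 on the opposite strand, and 40.1% of its 75-base windows occur in Duoxa1 transcripts. The counting is not stated to use strand, so reads of the pair cannot be fully told apart. Duoxa1 was credited with 0.31 to 7.78 CPM.

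Nos2, the inducible nitric oxide synthase, had the clearest division between tissues. Its ileal levels were 298, 661 and 101 CPM in control and 146, 202 and 300.3 CPM in KO mice. Its colonic levels were 11.1, 2.16 and 8.57 CPM in control and 2.497, 1.45 and 12.9 CPM in KO mice. Every ileal library was therefore above every colonic library, while the genotypes overlapped in both tissues.

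**Figure D1:**
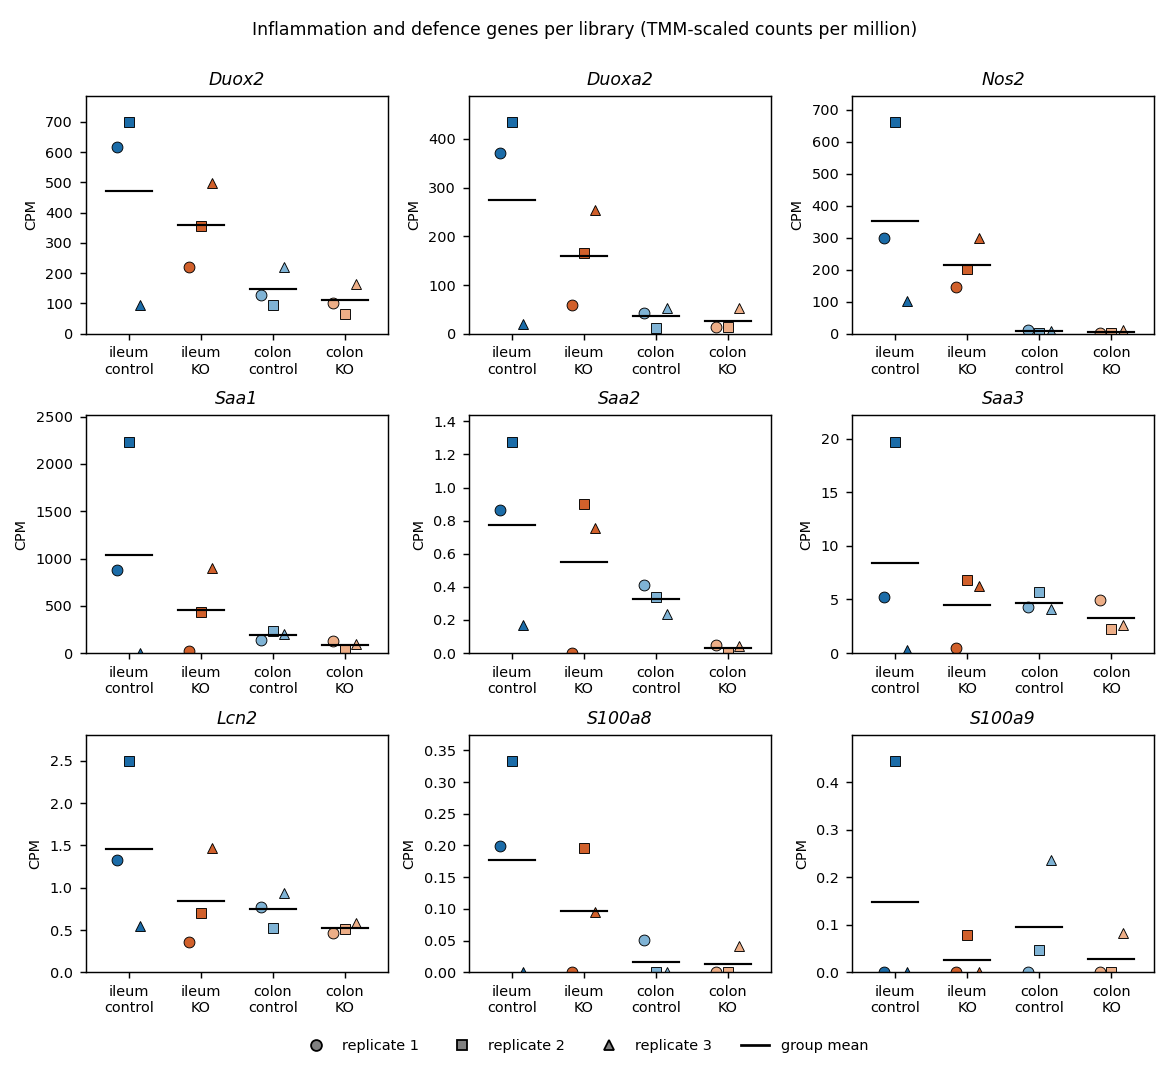
TMM-scaled CPM (vertical axes, linear from 0, a separate scale for each gene) of the 9 genes in the 4 groups, with a symbol for each of the 3 replicates and a bar for the group mean. Ileal control replicate 2 is the highest ileal library for each gene (Saa1 at 2237 CPM), and ileal control replicate 3 and KO replicate 1 lie at the bottom of their groups or share 0 CPM with another library.

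Serum amyloid A was represented almost wholly by Saa1. Saa1 was at 883, 2237 and 4.76 CPM in ileal control mice, at 18.6, 438 and 901 CPM in ileal KO mice, at 136, 230 and 204 CPM in colonic control mice and at 122, 43.0 and 98.6 CPM in colonic KO mice. Its ileal levels spanned 470.0-fold within the control group and 48.5-fold within the KO group, against 1.69-fold and 2.85-fold in the colon. The colonic KO libraries were all below the colonic control libraries.

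Saa2 was at 0.87, 1.28 and 0.17 CPM in ileal control mice, at 0, 0.90 and 0.76 CPM in ileal KO mice, at 0.41, 0.34 and 0.24 CPM in colonic control mice and at 0.05, 0 and 0.04 CPM in colonic KO mice, from 0 to 23 counts a library. In ileal control mice, mean Saa1 per kilobase was 420.4 CPM and mean Saa2 per kilobase 0.31 CPM. In colonic control mice they were 76.8 and 0.13 CPM. The longest coding transcripts of this pair were identical at 572 bases of the shorter, 609-base one (93.9%), and 4.7% of the 75-base windows of coding Saa1 transcripts and 4.6% of those of Saa2 occur in another gene's transcripts. Over all annotated transcripts, 18.5% of Saa1 windows and 17.8% of Saa2 windows are common to the pair. The 12 values of each gene were whole numbers. The study's reporting summary names uniquely mapped reads and a whole-read counter, but the table as a whole also holds values that are not whole, so how reads common to both genes were handled is not settled, and the smaller level, that of Saa2, is the less certain.

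Saa3, the serum amyloid A gene that macrophages also express, was at 5.26, 19.7 and 0.25 CPM in ileal control mice and at 0.48, 6.84 and 6.25 CPM in ileal KO mice. In the colon it was at 4.30, 5.66 and 4.10 CPM in control and 4.95, 2.28 and 2.66 CPM in KO mice. Saa3 was the only tested gene of the 7 for which the colonic control mean (4.69 ± 0.851, SD, n = 3) was above the ileal KO mean (4.52 ± 3.52, SD, n = 3), and these groups overlapped.

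Transcripts of the metal-withholding proteins were scarce. Lcn2, which captures iron-loaded siderophores, was at 1.33, 2.4997 and 0.55 CPM in ileal control mice, 0.36, 0.70 and 1.47 CPM in ileal KO mice, 0.77, 0.53 and 0.94 CPM in colonic control mice and 0.47, 0.52 and 0.58 CPM in colonic KO mice, from 6 to 45 counts a library. S100a8 was at 0.20, 0.33 and 0 CPM in ileal control mice and 0, 0.20 and 0.09 CPM in ileal KO mice, with 1 count in all in each colonic group. S100a9 had counts in ileal control replicate 2 (0.44 CPM), ileal KO replicate 2 (0.08 CPM), colonic control replicates 2 and 3 (0.05 and 0.24 CPM) and colonic KO replicate 3 (0.08 CPM), and 0 elsewhere. A count of 0 allows up to 3 counts, or 0.117 to 0.200 CPM depending on the library. The ileal KO to control ratio was 0.693 for S100a8 (7 against 9 counts, 95% exact interval 0.219 to 2.09) and 0.223 for S100a9 (2 against 8 counts, 0.0230 to 1.12), and these intervals cover counting error only.

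Neutrophil transcripts were scarce as well. The summed level of 12 neutrophil markers was 4.84 to 20.6 CPM in ileal control, 5.60 to 37.3 CPM in ileal KO, 14.1 to 16.95 CPM in colonic control and 19.1 to 35.7 CPM in colonic KO libraries. Most of it was Cd177 (3.48 to 34.7 CPM), while the defining marker Ly6g was at 0 to 0.25 CPM and Elane at 0 in every library. Macrophage and monocyte markers (8 genes) summed to 93.4 to 195 CPM in ileal control and 86.0 to 182 CPM in ileal KO libraries.

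Ordered by mean CPM, 7 of the 9 genes had the order ileal control, ileal KO, colonic control, colonic KO, and the exceptions were Saa3 and S100a9. Neighbours in that order overlapped in most cases. The ranges of ileal KO and colonic control did not overlap for Duoxa2 and Nos2. Those of colonic control and colonic KO did not overlap for Saa1 and Saa2. All colonic KO libraries lay below all colonic control libraries in 5.85% of all genes. No share over all genes was taken for the order of the 4 groups or for ileal KO against colonic control. Those counts therefore describe the 9 genes only.

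The effect of epithelial Slc39a8 deletion on these genes was asked first over both tissues together, which is how the study combined them, and then in each tissue. None of the 7 tested genes passed an adjusted p of 0.1 (edgeR, Benjamini-Hochberg over all genes), and neither did any of the 16558 genes (0.0%). At an unadjusted p under 0.05, 641 of all genes and 0 of the 7 were found, and DESeq2 called 4 of all genes and 0 of the 9. All 7 point estimates were negative over both tissues. They ran from -0.41 (SE 0.41) for Duox2 to -1.24 (SE 0.77) for Saa2 on the log2 scale, with Saa1 at -1.16 (SE 0.93) and Lcn2 at -0.64 (SE 0.40). The smallest unadjusted p was 0.133, for Saa2. In two-sided exact permutation tests on log2(CPM + 0.5) with the genotypes exchanged within each tissue, the p of the 9 genes lay between 0.18 and 0.73, where 0.005 is the smallest possible.

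In the ileum, 0 of 7 passed the threshold (0.0% of all genes, 252 of them at an unadjusted p under 0.05; DESeq2 called 2 of all genes and 0 of the 9). The ileal log2 fold changes were -0.39 (SE 0.61) for Duox2, -0.79 (SE 0.93) for Duoxa2, -0.71 (SE 0.80) for Nos2, -1.20 (SE 1.38) for Saa1, -0.41 (SE 0.90) for Saa2, -0.88 (SE 1.05) for Saa3 and -0.77 (SE 0.58) for Lcn2. None of the 7 had all KO libraries below all control libraries, which 1.57% of all genes did. A single library set the sign of most of these values. Without ileal control replicate 2, the highest ileal library for each gene, the log2 fold change became 0.0097 for Duox2, 0.12 for Nos2, 0.031 for Saa1, 0.20 for Saa2 and 0.76 for Saa3.

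In the colon, 0 of 7 passed as well (0.0% of all genes, 385 at an unadjusted p under 0.05, and 0 of all genes by DESeq2). Saa1 and Saa2 were the 2 of 7 genes with all KO libraries below all control libraries, against 5.85% of all genes. For Saa1 the group means were 190 ± 48.5 CPM in control and 88.0 ± 40.8 CPM in KO mice (SD, n = 3), a log2 fold change of -1.11 (SE 1.38, unadjusted p = 0.438, adjusted p = 1.0 in edgeR). The model shares its estimate of spread between the colonic and the widely spread ileal libraries, and the part of this in the SE was not tested. Over the 25 alternatives (edgeR, DESeq2 or limma-voom), with the fit on only the 6 colonic libraries among them, the adjusted p of Saa1 was at least 0.549. The exact permutation p of Saa1 and of Saa2 in the colon was 0.1, the smallest that 3 against 3 libraries can give. Saa2 had 2 counts in the 3 KO libraries and 20 in the 3 control libraries, a ratio per depth of 0.0954 (95% exact interval 0.0108 to 0.393, counting error only). Its fitted log2 fold change of -3.17 (SE 1.32, unadjusted p = 0.0347, adjusted p = 1.0) rests on these few counts. The other 5 colonic log2 fold changes lay between -0.35 (Nos2) and -0.51 (Saa3).

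Whether the genotype effect differed between the tissues was tested as an interaction, and 0 of 7 genes passed (0.0% of all genes; 169 of all genes at an unadjusted p under 0.05, 1 of all genes and 0 of the 9 by DESeq2). The SE of this difference was 0.85 to 1.93 on the log2 scale for the 7 genes, so a difference of that size was not detectable with 3 libraries a group.

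**Figure D2:**
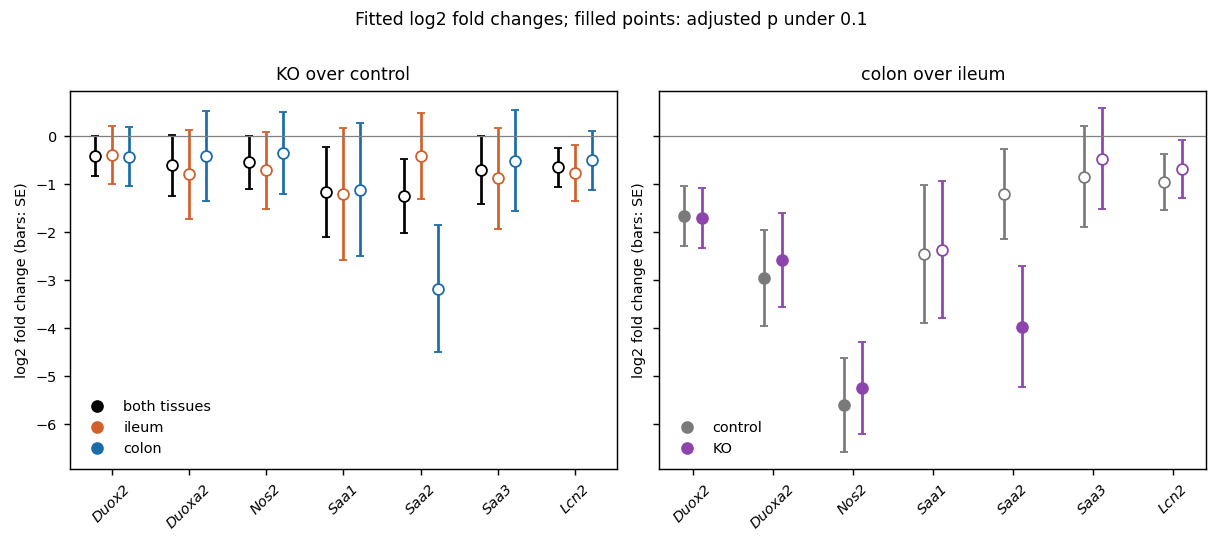
Log2 fold changes (vertical axis) of the 7 tested genes, with bars for standard errors derived from the F statistic. The left panel gives KO over control in both tissues, ileum and colon, and the right panel colon over ileum in control and KO mice. Filled points passed an adjusted p of 0.1 in edgeR; there are 0 on the left, and on the right Nos2 at -5.60 and -5.25 lies lowest.

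Between the tissues, edgeR called the genes of the oxidant enzymes lower in the colon, but not under every test. In control mice, 3 of 7 genes were called lower in the colon and 0 higher, where 19.6% of all genes were called lower. Nos2 fell by 5.60 on the log2 scale (SE 0.97, adjusted p = 0.0013 in edgeR), Duoxa2 fell by 2.95 (SE 0.998, adjusted p = 0.0459) and Duox2 fell by 1.66 (SE 0.62, adjusted p = 0.0677). Saa1 had a log2 difference of -2.45 (SE 1.44, adjusted p = 0.229), Saa2 of -1.20 (SE 0.94), Saa3 of -0.84 (SE 1.05; the difference of mean log2(CPM + 0.5) was 0.21) and Lcn2 of -0.96 (SE 0.59), and none of these passed. Nos2 was the only tested gene with all colonic control libraries below all ileal control libraries, which 20.4% of all genes showed.

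In KO mice, 4 of 7 genes were called lower in the colon and 0 higher, against 20.0% of all genes called lower. Nos2 fell by 5.25 (SE 0.96, adjusted p = 0.0018 in edgeR), Duoxa2 fell by 2.58 (SE 0.98, adjusted p = 0.0707), and Duox2 fell by 1.70 (SE 0.62, adjusted p = 0.0627). The fourth, Saa2 at -3.96 (SE 1.27, adjusted p = 0.0364), rests on 39 counts in the ileum and 2 in the colon. Duox2, Duoxa2 and Nos2 had all colonic KO libraries below all ileal KO libraries, which 24.9% of all genes did. Nos2 passed in both genotypes under all 25 alternatives tried, with log2 differences from -4.78 to -6.06 in control and from -4.80 to -6.76 in KO mice.

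The calls for Duox2 and Duoxa2 were less firm. In control mice, two-sided exact permutation tests gave p = 0.4 for Duox2 and p = 0.3 for Duoxa2, and p = 0.1, the smallest possible, for Nos2; in KO mice all 3 had p = 0.1. With limma-voom the adjusted p in control mice was 0.155 for Duox2 and 0.136 for Duoxa2, and in KO mice it was 0.106 for Duoxa2 and 0.224 for Saa2, none of which passes. Over all alternatives (edgeR, DESeq2 or limma-voom) the adjusted p in control mice ran from 0.00090 to 0.200 for Duox2 and from 0.0010 to 0.142 for Duoxa2. In KO mice it ran from 0.0019 to 0.193 for Duox2, from 0.0030 to 0.202 for Duoxa2 and from 0.00044 to 0.224 for Saa2. Without a single library the count of genes called in control mice was 1 (without ileal control replicate 2, or colonic control replicate 1 or 2), 2 (without ileal control replicate 1) or 5 (without ileal control replicate 3), and in KO mice it was 1 (without ileal KO replicate 2 or colonic KO replicate 2), 2 (without ileal KO replicate 3 or colonic KO replicate 1) or 5 (without ileal control replicate 3). Ileal KO replicate 2 is the library with colonic transcripts. Without both ileal libraries low in muscle transcripts, 7 of 7 genes were called lower in the colon of control mice (beside 3722 of 16896 genes, 22%, in that fit). In KO mice 5 of 7 were called lower (beside 3667 genes, 21.7%). These libraries were the lowest ileal ones for all 7 genes, so leaving them out raised the ileal levels. The larger counts follow from that choice and add no support for a tissue difference. All 7 epithelial markers were also lower in the colon of control mice, with a median log2 difference of -1.05, and the summed epithelial level was 18802 to 20919 CPM in the ileum and 9352 to 10687 CPM in the colon. The part of epithelial content in the tissue difference was not tested.

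Within the ileum the genes varied together from library to library. All 7 tested genes had control replicate 3 and KO replicate 1, the libraries low in muscle transcripts, below the other 4 ileal libraries, which 27.2% of all genes did. The mean of the other 4 libraries was 95.5 times the mean of this pair for Saa1, 26.0 times for Saa3, 7.79 times for Duoxa2, 3.43 times for Duox2, 3.30 times for Lcn2 and 2.96 times for Nos2. S100a8 had counts in all of the other 4 and 0 in both. Epcam, an epithelial surface protein, was at 2679 and 2982 CPM in this pair and at 3005 to 3661 CPM in the other 4, so epithelial transcripts were nearly as abundant. Macrophage and monocyte markers summed to 86.0 and 93.4 CPM in the pair and to 166 to 195 CPM in the others, and neutrophil markers to 4.84 and 5.60 against 12.2 to 37.3 CPM. In the opposite direction, 4 B cell and follicle markers (Ms4a1, Cd79a, Cr2 and Fcer2a) summed to 30.2 and 36.8 CPM in the pair against 1.80 to 4.55 CPM in the others, and M cell markers to 41.7 and 39.5 against 22.9 to 28.8 CPM. Their part in the levels of the 9 genes was not tested.

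Control replicate 2 was the highest of the 6 ileal libraries for all 7 tested genes, against 17.3% of all genes, and it also held the highest S100a8 and S100a9 values. Genes measured in the same libraries are not independent, so these counts describe libraries and not replicated effects. Among the 4 ileal libraries with usual muscle content, the mean of the 2 KO libraries was 0.429 times that of the 2 control libraries for Saa1, 0.649 for Duox2, 0.520 for Duoxa2, 0.524 for Nos2 and Saa3, 0.567 for Lcn2 and 0.773 for Saa2. Between the libraries low in muscle the direction was the opposite for Saa1 (KO 3.91 times control), Duoxa2 (2.87), Duox2 (2.30), Saa3 (1.87) and Nos2 (1.44), and not for Lcn2 (0.648). With 1 library a genotype these last ratios have no replicate check.

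**Figure D3:**
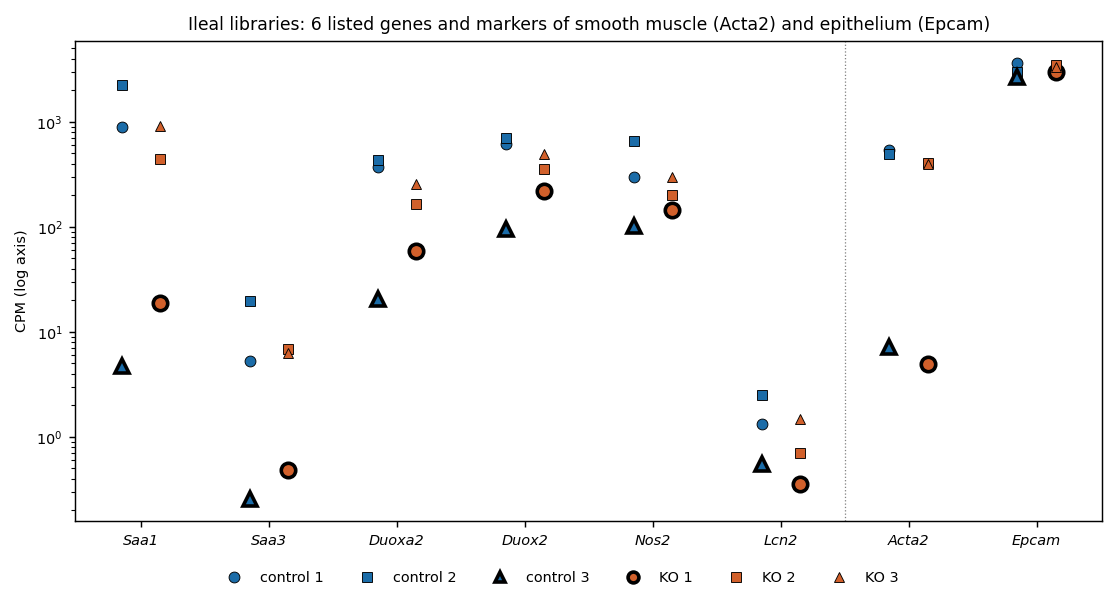
CPM on a log axis for 6 of the genes and for markers of smooth muscle (Acta2) and epithelium (Epcam) in the 6 ileal libraries, control in blue and KO in orange, with symbols for the replicates and heavy outlines for control replicate 3 and KO replicate 1. Both heavy-outlined libraries lie below the other 4 in each gene, 95.5-fold for Saa1 on the mean, while Epcam spans 2679 to 3661 CPM.

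The wider pathway was followed through 5 lists with 136 genes in all. Over both tissues, 0 of the 108 list genes tested passed the threshold for genotype, and 4 of them (3.70%) had an unadjusted p under 0.05, against 3.87% of all genes tested. These were S100a10, an annexin partner, at -0.40 (SE 0.17), Il10rb, a subunit of the IL-22 and IL-10 receptors, at 0.17 (SE 0.07), Tnf at -1.50 (SE 0.62) and Pglyrp2, a peptidoglycan amidase, at 0.90 (SE 0.40) on the log2 scale. The list of other inducible epithelial defence genes had a median log2 fold change of -0.24 over both tissues, against 0.00 for all genes. Its member Reg3b, a C-type lectin that binds bacteria, was at -1.11 (SE 0.61, unadjusted p = 0.0933, edgeR).

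Between the tissues of control mice, the list of other inducible defence genes had 11 of 24 tested genes lower in the colon and 2 higher (median -1.098), beside the 19.6% of all genes called lower and 16.2% called higher that apply to each list here. The phospholipase gene Pla2g2a fell by 5.92 (SE 0.71), Reg3a fell by 3.96 (SE 0.38), and Gpx2, an epithelial glutathione peroxidase, fell by 2.89 (SE 0.37). Pglyrp1, a peptidoglycan recognition protein, fell by 1.32 (SE 0.20). In KO mice 12 were lower and 3 higher, beside 20.0% of all genes lower and 17.1% higher.

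Of 29 NF-kB and STAT3 signalling genes, all tested, 14 were lower in the colon of control mice and 1 higher (median -0.53). Relb, an NF-kB subunit, fell by 1.35 (SE 0.14), Ticam1, an adaptor of Toll-like receptors, fell by 0.77 (SE 0.18), Tnip1, an inhibitor of NF-kB signalling, fell by 0.70 (SE 0.16), and Traf3ip2, the adaptor of the IL-17 receptor, fell by 0.65 (SE 0.16). In KO mice 13 were lower and 1 higher.

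Among upstream cytokines and receptors, 20 of 33 passed the filter, of which 6 were lower in the colon of control mice and 3 higher, shares of a size not far from those over all genes. Il22ra1 fell by 1.39 (SE 0.22), Tnfrsf1a fell by 1.53 (SE 0.23) and Il17rc fell by 0.85 (SE 0.20), whereas Il17re, the receptor subunit for IL-17C, rose by 1.98 (SE 0.24). The ligands of this list differed in level. Il18 was at 10.7 to 51.9 CPM over the 12 libraries. Il22 was at 0 to 0.14 CPM, Il17a at 0 to 1.11 CPM in the ileum and 0 in all 6 colonic libraries, and Il6 at 0 to 0.22 CPM. Il22, Il17a and Il6 were named after their values were seen, as the best known inducers of the 9 genes.

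Of the oxidant relatives, 19 of 24 were tested, with 4 higher and 5 lower in the colon of control mice (median -0.20), again not far from the shares over all genes. Lpo, lactoperoxidase, which uses hydrogen peroxide, was at 17.2 to 20.1 CPM in the colon and at 0 to 0.06 CPM in the ileum of control mice, the opposite direction to Duox2. Rac2, a GTPase of the phagocyte oxidase, fell by 1.48 (SE 0.26), Slc7a2, an arginine transporter, fell by 1.82 (SE 0.51), and Ass1, which regenerates arginine, rose by 1.29 (SE 0.30). Of the relatives of Saa, S100 and lipocalin genes, 16 of 20 were tested, with 6 higher and 3 lower in the colon of control mice (median 0.70). S100g, a calcium-binding protein, rose by 5.79 (SE 0.78) and S100a1 rose by 1.78 (SE 0.20), while S100a11 fell by 1.23 (SE 0.16) and the apolipoprotein gene Apoa1 fell by 11.5 (SE 0.90).

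**Figure D4:**
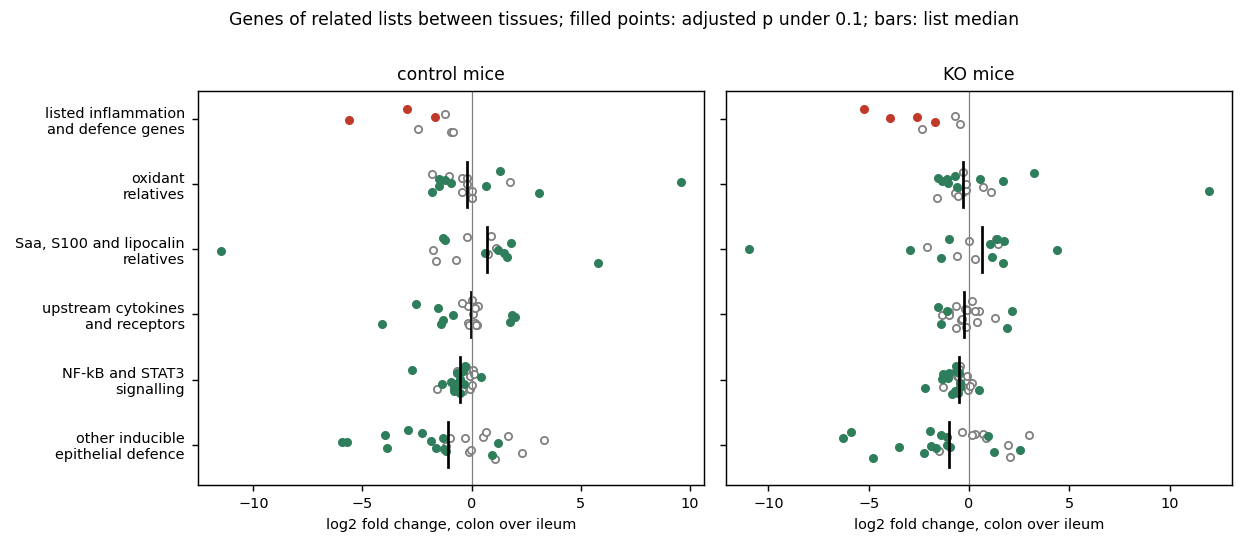
Log2 fold change, colon over ileum (horizontal axis), of the 7 tested genes (top) and of each tested gene of the 5 related lists, in control mice (left) and KO mice (right), with filled points for an adjusted p under 0.1 in edgeR and bars for the list medians. Of the NF-kB and STAT3 genes, 14 of 29 lie to the left of 0 with filled points in control mice, and 11 of 24 of the other inducible defence genes.

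Each tested gene was last set beside the genes whose levels followed it most closely over the 12 libraries, by the smallest root mean square difference of centred log2 CPM. For Duox2 these were Itgae, an integrin of intraepithelial lymphocytes (0.41, where the spread of Duox2 itself was 1.104), F830208F22Rik (0.42) and Duoxa1 (0.42). Reads of Duoxa1 cannot be fully told apart from those of Duoxa2, with which it shares exon bases. For Duoxa2 the nearest genes were the lymphocyte granzymes Gzma (0.55) and Gzmb (0.57) and the chemokine Ccl5 (0.67), with a spread of 1.796. Gzma was at 193, 194 and 26.2 CPM in ileal control mice and at 38.6, 141 and 210 CPM in ileal KO mice, with the same low pair of libraries.

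Nos2 was nearest to Soat2 (0.67), Tnfaip8l3 (0.74) and Rnf152 (0.79), with a spread of 3.01, and Saa1 to the protease inhibitor Slpi (0.89), Grem1 (0.90) and Dgkb (0.99), with a spread of 2.39. Saa2 was nearest to Hoxc6, 2700033N17Rik and Bcl2a1a (0.60 to 0.63), Saa3 to Tat, Cldn10 and Cav3 (0.56 to 0.60), and Lcn2 to Gm42507, Tm4sf20 and the cytokine Il18 (0.30 to 0.31). Within the set, Duox2 was at a distance of 0.69 from Lcn2 and 0.75 from its partner Duoxa2. This measure also counts the size of the swings, and the spread was 0.70 for Lcn2, 1.104 for Duox2 and 1.796 for Duoxa2. Duox2 and Duoxa2 put the ileal libraries in the same order by level, and Lcn2 in another. The smaller distance therefore does not mean that Duox2 followed Lcn2 more closely than Duoxa2. These distances describe 12 libraries that share tissue and library composition.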

How the data were processed

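Poly(A) RNA of 12 mucosal samples was sequenced as 150-base read pairs. The authors aligned reads to mm10 with STAR and deposited expected counts per gene; which tool made these counts was not given in the sources. A reporting summary of the study names unique reads and a whole-read counter, but 93.7% of values were whole (within 0.005). The 92 spike-in lines held 0 counts and were left out. Gene symbols came from GENCODE M21, matched without version.

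Expected counts were rounded. The filter (filterByExpr), TMM scaling and quasi-likelihood tests were run in edgeR 4.0.16 (R 4.3.3), with ~ tissue + genotype for both tissues together and a 4-group model otherwise, Benjamini-Hochberg adjustment over 16558 genes and the study's threshold of 0.1. Each SE of an edgeR value was derived from its F statistic, as the absolute log2 fold change divided by the square root of F. It is approximate, above all for genes with few counts. The fits were tested on simulated data. Exact permutation tests (SciPy 1.17.1) used log2(CPM + 0.5) and were not adjusted. Alternatives were DESeq2 1.42.0, limma-voom 3.58.1, other scalings, filters and thresholds, counts without rounding, a replicate block, fewer libraries, and Saa1 and Saa2 added together. Replicates within a group are separate mice per the study's methods, and the main tests took all 12 libraries as independent.

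The 9 genes, the lists and the tests were chosen with earlier results of these data known. From each list the called genes were eligible for naming, or the 4 with the smallest p where none or more than 4 passed, and a selection of these is named; the 3 nearest genes are named for each tested gene. Upstream windows are RefSeq's, without the bases after the start; no window was matched for Nos2.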

Additional observations from a re-analysis of the deposited data

How the results depend on the processing

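With 3 libraries a group, the wide ileal spread limits every genotype value, and genes under about 1 CPM (Saa2, Lcn2, S100a8, S100a9) rest on few counts. Of 1027 alternative values for the 7 tested genes, 954 kept their direction and side of the threshold, 25 lost and 8 gained a call, and 40 reversed, of which 28 belong to the genotype effect in colon minus ileum. The genotype counts stayed at 0 of 7 under each alternative that was run, while over all genes DESeq2 called 4 over both tissues, 2 in the ileum and 1 in the interaction, limma-voom 1 over both tissues and 1 in the ileum, and the fit without both ileal libraries low in muscle 5 and 3. The causes of the changes below were not tested.

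For colon against ileum, limma-voom called 1 of 7 genes in control and 2 in KO mice, and an adjusted p under 0.05 left 2 in KO mice. The fit without both libraries low in muscle, the lowest ileal ones for all 7 genes, gave 7 in control mice. Leaving out each library in turn gave 1 to 5 in control and 1 to 5 in KO mice. limma-voom turned Saa3 to 0.30 for genotype in the ileum and to 0.86 for tissue in control mice, and it gave interaction values of -0.28 for Duoxa2, -0.21 for Nos2, -1.05 for Saa1 and -0.87 for Saa3. The interaction of Duox2 was 0.016 with upper quartile factors, 0.098 with the replicate block and 0.23 without the libraries low in muscle. In the permutation test with log2(CPM + 2), the tissue difference of Saa3 in control mice was -0.091. With library size alone the colonic KO mean of Lcn2 was 0.593 CPM.

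Log2 values that changed sign when a library was left out had these ranges. For genotype over both tissues, Saa3 ran from -0.94 to 0.032. For genotype in the ileum, Duox2 ran from -0.88 to 0.0097, Nos2 from -1.15 to 0.12, Saa1 from -2.19 to 0.031, Saa2 from -0.94 to 0.20 and Saa3 from -1.46 to 0.76. For genotype in the colon, Nos2 ran from -1.86 to 0.092. For the interaction, Duox2 ran from -0.43 to 0.47, Duoxa2 from -0.55 to 0.94, Nos2 from -1.14 to 0.81, Saa1 from -1.14 to 1.08, Saa3 from -1.27 to 0.97 and Lcn2 from -0.38 to 0.91. For tissue in control mice, Saa3 ran from -1.43 to 0.80.

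The labels do not tie replicate numbers to a mouse. The correlation of deviations of same-numbered ileal and colonic libraries was 0.19, 0.051 and 0.25 in KO mice and -0.053, 0.16 and -0.080 in control mice. Between libraries of different numbers it ran from -0.21 to 0.054 in KO mice and from -0.18 to 0.16 in control mice. Not every same-numbered pair was over 0.1, and the numbers were not taken as pairs. These values do not settle whether both tissues came from the same mice. With the replicate block, 3 of 7 genes in control and 4 of 7 in KO mice were called between tissues and 0 for genotype, and 5333 and 5558 of all genes between tissues, against 5940 and 6149 without it. This block joined libraries of the same number across both genotypes, which are different mice. It therefore does not stand for a mouse, and no fit with a term for each mouse was run. Saa2 was filtered out of some fits on fewer libraries and has no value there.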

Other observations

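Reg3b and Reg3g, antibacterial lectins of the epithelium, showed the same pair of low ileal libraries as the 7 tested genes. Reg3b was at 54005, 65061 and 4467 CPM in ileal control mice and at 6660, 27746 and 44215 CPM in ileal KO mice, with 1408 to 3485 CPM in colonic control and 569 to 1671 CPM in colonic KO mice. Reg3g was at 25815, 36506 and 1742 CPM in ileal control mice and at 2742, 10700.4 and 21821 CPM in ileal KO mice, with 229 to 662 CPM in colonic control and 98.9 to 391 CPM in colonic KO mice. In both genes control replicate 3 and KO replicate 1 were the lowest ileal libraries and control replicate 2 the highest. Reg3a, a relative, was at 53.1, 106 and 68.5 CPM in ileal control mice and at 73.5, 41.5 and 79.0 CPM in ileal KO mice, and this pair of libraries was not low for it. Reg3g was named after its values were seen.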
